A study of Homo sapiens with 2 samples.

Results

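The data describe cohesin and its regulators in Ewing sarcoma cell lines, as read by single cell RNA-Seq. The 10 genes were taken by name out of the 33538 genes of the deposited matrices: the core ring subunits SMC1A, SMC3 and RAD21, the alternative subunits STAG1 and STAG2, the loader NIPBL, the release factor WAPL with its partners PDS5A and PDS5B, and the boundary protein CTCF. All 10 were measured in both lines. The study placed Ewing sarcoma, a bone and soft tissue tumor driven by an EWSR1 fusion gene, among developing tissues, and single cell RNA-Seq was used to look for subpopulations of tumor cells. The medium of CHLA9 was IMDM containing 20% fetal bovine serum plus insulin, transferrin and selenite, and that of TC71 was RPMI-1640 containing 10% serum. Neither line was treated. Each line gave 1 library, made with a 3′ kit of 10x Genomics, and the CHLA9 library was sequenced on both HiSeq and NovaSeq instruments while TC71 was sequenced on HiSeq alone. Line, medium and sequencing therefore cannot be told apart, and no difference between the lines has a replicate check. The STAG2 status of the lines is not given in the sources used here, and 3′ tags count a transcript alike whether or not its reading frame is intact.

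Cohesin is a ring of SMC1A and SMC3 closed by the kleisin RAD21, to which either STAG1 or STAG2 binds. It holds sister chromatids together from replication until anaphase and extrudes loops of chromatin, which stop at sites bound by CTCF. NIPBL, with its partner MAU2, loads the ring, whereas WAPL and the PDS5 proteins take it off chromatin, and STAG2 is among the genes recurrently lost in Ewing sarcoma tumors.

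A cell was kept with at least 5000 unique molecular identifiers (UMIs, each counting an RNA molecule), at least 2000 genes and at most 15% of UMIs from mitochondrial genes. This kept 4524 of 5077 barcodes of CHLA9 and 1729 of 8468 of TC71, with 174975302 and 58355173 UMIs and medians of 34656 and 33370 UMIs per cell. The libraries shared 16 barcodes, of which 3 were among the kept cells. Levels are given as CPM, the UMIs of a gene in every 1000000 UMIs of the kept cells, or of the group of cells named. Of 7 Ewing sarcoma markers, 6 in CHLA9 and 7 in TC71 reached 10 CPM, with NKX2-2 at 9.89 CPM in CHLA9. No leukocyte or endothelial marker reached 10 CPM, 1 of 4 epithelial markers did (KRT18, at 118 CPM for CHLA9 and 296 CPM for TC71), and the 4 fibroblast markers summed to 97.3 CPM in CHLA9 and 24.9 CPM in TC71. CD3E, KRT5 and VWF had 0 UMIs in both lines, which allows up to 0.0211 CPM in CHLA9 and 0.0632 CPM in TC71 (upper 95% Poisson limits). The part of other cell types in the results below was not tested.

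To show the sequence from which these genes start, the bases before the RefSeq starts (build GRCh38.p14) were searched on both strands for short words linked to cell cycle genes: the E2F words TTTCCCGC, TTTCGCGC, TTTGCCGC and TTTGGCGC, the CHR word TTTGAA and the CCAAT box CCAAT. Sequences were searched for 9 of the 10 genes, over 12 starts and 250 bases each, and RAD21 was not searched. An E2F word was found before a start of 4 of the 9 genes (STAG1, STAG2, SMC1A and NIPBL), or 4 of the 12 starts, against 2.79% of all 35116 starts. The CHR word was found for SMC3 and CTCF (2 starts, 13.3% of all starts), and CCAAT for 5 genes (6 starts, 32.0% of all starts). These matches are descriptions of the letters and not of binding. The background of all starts was not matched for base content. Each E2F word holds CG, and the 12 starts had 13 to 41 CG sites in 250 bases, beside a median of 11.0 over all starts. The 2 windows of SMC1A overlap, so the 12 starts are not all separate sequence. Whether the words are more frequent here than at starts of like base content was not tested. The windows of 5 genes are shown because they carry the STAG1 and STAG2 comparison and the words found in the loader, a ring subunit and CTCF, left without any stretch inside an exon of a protein-coding gene. Capitals mark the words found, on either strand.
STAG1 (chr3:136752404-136752628, minus strand): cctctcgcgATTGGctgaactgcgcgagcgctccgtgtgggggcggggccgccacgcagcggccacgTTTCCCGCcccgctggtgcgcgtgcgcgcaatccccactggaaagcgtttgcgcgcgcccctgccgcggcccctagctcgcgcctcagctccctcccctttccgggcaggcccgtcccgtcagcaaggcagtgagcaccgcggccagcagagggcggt
STAG2, first listed start (chrX:123960310-123960518, plus strand): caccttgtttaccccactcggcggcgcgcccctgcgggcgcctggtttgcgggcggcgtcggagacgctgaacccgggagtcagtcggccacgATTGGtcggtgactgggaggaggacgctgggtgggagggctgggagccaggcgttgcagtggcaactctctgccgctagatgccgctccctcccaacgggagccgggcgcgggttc
SMC3 (chr10:110567445-110567683, plus strand): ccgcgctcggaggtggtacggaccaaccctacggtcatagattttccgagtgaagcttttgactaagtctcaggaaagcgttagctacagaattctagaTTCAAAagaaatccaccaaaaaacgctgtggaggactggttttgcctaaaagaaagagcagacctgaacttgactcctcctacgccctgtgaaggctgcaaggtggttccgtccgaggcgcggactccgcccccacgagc
NIPBL (chr5:36876519-36876768, plus strand): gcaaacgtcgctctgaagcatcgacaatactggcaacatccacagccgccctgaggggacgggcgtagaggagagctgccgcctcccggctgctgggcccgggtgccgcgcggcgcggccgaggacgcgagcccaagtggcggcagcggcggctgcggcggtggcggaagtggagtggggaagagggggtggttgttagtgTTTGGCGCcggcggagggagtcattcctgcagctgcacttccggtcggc
CTCF (chr16:67562276-67562466, plus strand): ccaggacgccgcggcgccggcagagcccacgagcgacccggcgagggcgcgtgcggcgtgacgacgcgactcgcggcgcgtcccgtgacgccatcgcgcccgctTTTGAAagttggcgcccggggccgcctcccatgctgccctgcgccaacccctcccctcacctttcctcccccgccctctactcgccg
STAG1 holds an E2F word 183 bases before its start and NIPBL holds another 49 bases before its start. The CHR word lies 151 bases before the start of SMC3 and 146 bases before that of CTCF. The first listed STAG2 start has only a CCAAT box among these words, 157 bases upstream, while the E2F word of STAG2 precedes its last listed start.

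The ring subunits were the most abundant of the 10 genes in both lines, and RAD21 led in each (the plot of levels by line). A 3′ tag counts a transcript once whatever its length, so levels were compared between genes as CPM without a length correction. Whether transcripts of different genes are captured and counted alike was not measured, so orders and ratios between genes are those of UMIs. Each value is followed by its exact 95% Poisson interval, which covers counting error only. RAD21, the subunit that separase cuts at anaphase, was at 446 CPM (443 to 449) in CHLA9 and 399 CPM (394 to 404) in TC71. SMC3, which is acetylated when cohesion is set up, was at 361 CPM (358 to 364) and 317 CPM (312 to 321). SMC1A, whose gene lies on chromosome X, was at 316 CPM (313 to 318) and 182 CPM (178 to 185). RAD21 and SMC3 had small log2 differences between the lines (CHLA9 over TC71), of 0.16 and 0.19, whereas SMC1A was 1.74-fold higher in CHLA9.

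STAG2 exceeded STAG1 in both lines. STAG2, the subunit favored at the sites where cohesin meets enhancers, was at 208 CPM (206 to 210) in CHLA9 and 135 CPM (132 to 138) in TC71, and STAG1, its alternative, was at 53.6 CPM (52.5 to 54.7) and 25.2 CPM (23.9 to 26.5). STAG1 was the lowest of the 10 genes in each line and had the largest difference between the lines among them, 2.13-fold or 1.09 on the log2 scale. STAG2 was 1.55-fold higher in CHLA9, just past the 1.5-fold mark, and NIPBL, at 1.44-fold, lay just short of it.

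Among the factors that load and release the ring, WAPL (1.12-fold) and PDS5A (1.07-fold) were close between the lines. NIPBL (1.44-fold) and PDS5B (1.35-fold), both higher in CHLA9, differed more. NIPBL was at 137 CPM (135 to 139) in CHLA9 and 95.3 CPM (92.8 to 97.9) in TC71. PDS5A was at 100 CPM (99.0 to 102) and 93.6 CPM (91.2 to 96.1), and its paralog PDS5B was at 120 CPM (119 to 122) and 88.8 CPM (86.4 to 91.3). PDS5B thus exceeded PDS5A in CHLA9, while in TC71 PDS5A was slightly ahead, with 51.3% of the UMIs of the pair (exact 95% binomial interval 50.4 to 52.3). The order in TC71 depended on cell cycle phase, described further below. PDS5A gave 54.8% (53.4 to 56.2) in S cells but 47.9% (46.5 to 49.3) in G2M cells, where PDS5B led. WAPL, which opens the ring, was at 73.7 CPM (72.4 to 74.9) and 65.5 CPM (63.5 to 67.6). CTCF, the zinc finger protein at loop anchors, was at 106 CPM (105 to 108) and 87.5 CPM (85.1 to 89.9). In CHLA9 the intervals of neighbours in the order of levels did not overlap. In TC71 those of NIPBL and PDS5A, of PDS5A and PDS5B, and of PDS5B and CTCF did.

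**Figure D1:**
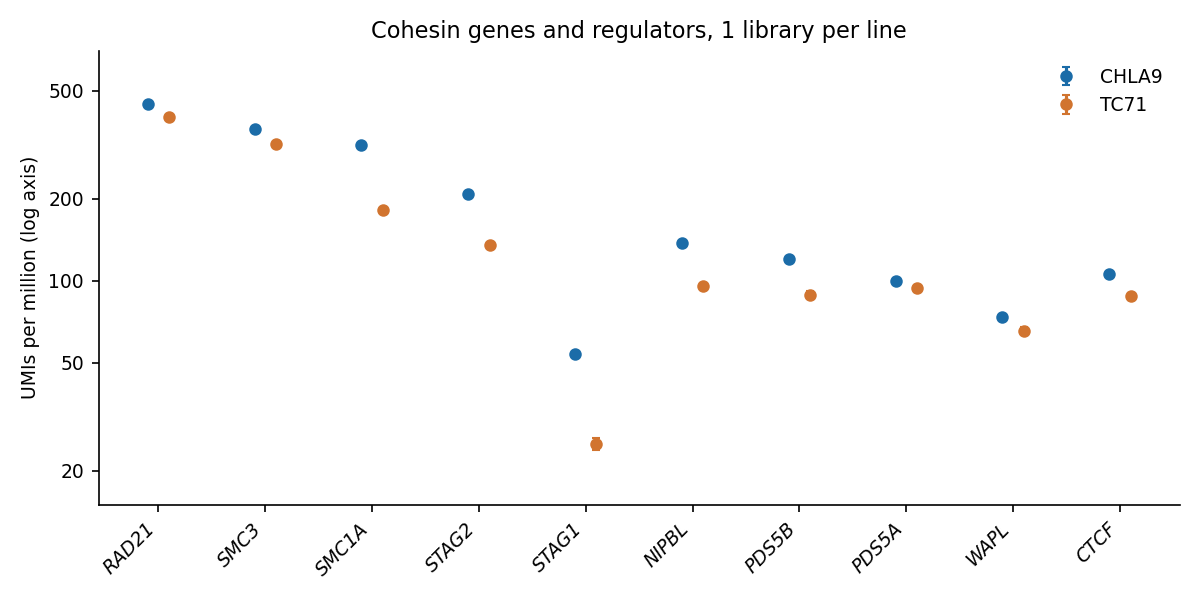
CPM (log axis) of the 10 genes in the CHLA9 and TC71 libraries, with points for the level and bars for the exact 95% Poisson interval, which covers counting error only. All 10 points are higher in CHLA9, with the widest gap at STAG1 (53.6 against 25.2 CPM) and the narrowest at PDS5A (100 against 93.6 CPM).

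Of the 10 genes, 3 (STAG1, SMC1A and STAG2) were at least 1.5-fold higher in CHLA9 and 0 were at least 1.5-fold higher in TC71. Of the 9258 genes with at least 10 CPM in a line, 31.1% were at least 1.5-fold higher in CHLA9 and 16.3% at least 1.5-fold higher in TC71, so the share of the 10 genes past the mark was near the background. The median difference of the 10 genes was 0.36 on the log2 scale, beside 0.21 over all 9258 genes. Measured from that median, 6 genes lay above it (STAG1 by 0.88, SMC1A by 0.59, STAG2 by 0.42, NIPBL by 0.31, PDS5B by 0.23 and CTCF by 0.07), while SMC3, RAD21, WAPL and PDS5A lay below it by at most 0.11. Scaling by the median of ratios shifted every log2 difference by -0.16, which left STAG2 short of 1.5-fold (log2 difference 0.47) and brought RAD21 to 0.00, and PDS5A was then higher in TC71 (-0.06, and -0.01 with TMM). STAG2 also fell short of 1.5-fold with TMM (0.52), without mitochondrial and ribosomal protein genes (0.54) and when cells were thinned to 10000 UMIs (0.55). NIPBL passed the mark under that thinning (0.59), so the count of 3 then held STAG1, SMC1A and NIPBL.

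The difference between the lines was also read within phases of the cell cycle, which are described further below. In G1 cells 4 of the 10 genes were at least 1.5-fold higher in CHLA9, with 34.4% of all genes, in S cells 3, with 32.9% of all genes, and in G2M cells 2, with 29.3% of all genes, so these shares were also near the background. In G1 cells RAD21 (314 CPM, 308 to 321, in CHLA9 and 322 CPM, 308 to 337, in TC71) and SMC3 (273 CPM, 268 to 279, and 280 CPM, 267 to 294) had overlapping intervals in the lines. In S cells the median log2 difference of the 10 genes was 0.52, beside 0.23 over all genes.

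The genes differed in how many cells they were detected in and in how far they varied beyond counting. Each cell was thinned to 10000 UMIs, which left 4510 cells of CHLA9 and 1670 of TC71. At that depth STAG1 was detected in 39.8% of CHLA9 cells and 22.2% of TC71 cells, STAG2 in 83.8% and 71.9%, and RAD21 in 96.8% and 96.2%. At full depth the shares were 79.2% and 53.2% for STAG1 and 98.9% and 94.6% for STAG2. No cell type that lacks cohesin was present to measure free RNA against. The variance over the mean of the UMIs per cell, which is near 1 for counting alone, ran from 1.01 to 1.64 over the 10 genes in CHLA9 and from 1.01 to 1.55 in TC71, with RAD21 highest in each. The medians of the 10 genes were 1.17 and 1.12, beside medians of 1.04 and 1.05 and 90th percentiles of 1.19 and 1.18 over all genes. Above that percentile lay 3 genes in CHLA9 (RAD21, SMC1A at 1.48 and SMC3 at 1.30) and 2 in TC71 (RAD21 and SMC1A). All were ring subunits, the most abundant of the 10 genes. The background, all genes of at least 10 CPM in the line, was not matched for level. PDS5A was at 1.01 in CHLA9 and 1.05 in TC71.

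STAG2 gave most of the STAG1 and STAG2 UMIs in every phase of both lines, and in CHLA9 its share was lowest in G2M cells (the plot of STAG2 shares). STAG2 made up 79.5% (exact 95% binomial interval 79.2 to 79.9) of the STAG1 and STAG2 UMIs in CHLA9 and 84.2% (83.5 to 85.0) in TC71, which is 3.89 and 5.35 STAG2 UMIs per STAG1 UMI. In CHLA9 the share was 80.3% (79.3 to 81.2) in G1 cells, 82.3% (81.7 to 82.9) in S cells and 77.1% (76.5 to 77.7) in G2M cells. In TC71 it was 84.6% (81.8 to 87.1), 85.5% (84.4 to 86.5) and 83.0% (81.8 to 84.1). The phases of CHLA9 thus differed by more than counting error. In TC71 the intervals of S and G2M cells did not overlap, but that of G1 cells spanned the G2M value. Thinned to 10000 UMIs per cell, the TC71 share was 83.5% in G1, 85.2% in S and 83.7% in G2M cells, so that G1 cells were then lowest. Across quartiles of UMIs per cell the share ran from 78.7% to 80.5% in CHLA9 and from 83.0% to 85.2% in TC71.

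**Figure D2:**
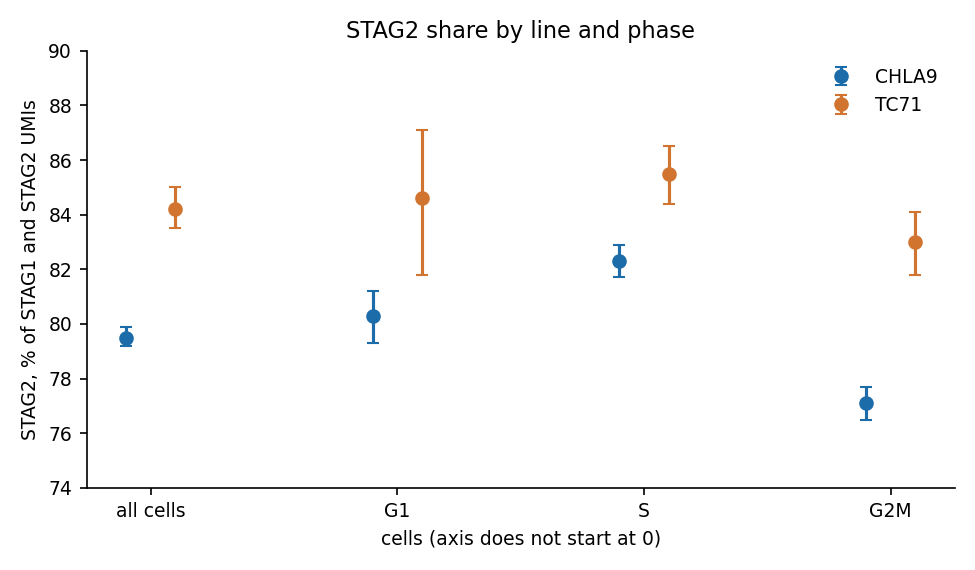
STAG2 as a percent of STAG1 and STAG2 UMIs (axis from 74 to 90) in all cells and in cells called G1, S and G2M, with exact 95% binomial intervals that cover counting error only. CHLA9 runs from 77.1% in G2M to 82.3% in S cells and TC71 from 83.0% to 85.5%.

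STAG1 and STAG2 were found in the same cells about as often as their separate shares give. At 10000 UMIs 33.9% of CHLA9 cells held UMIs of both, where the product of the separate shares is 33.4%, and in TC71 it was 16.5% beside 15.9%. STAG1 was detected in 40.5% of the CHLA9 cells with STAG2 and 36.2% of those without, and in 23.0% and 20.0% of TC71 cells. At full depth 0.508% of CHLA9 cells and 3.59% of TC71 cells held neither.

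All 10 genes were lowest in G1 cells in both lines, though for some the counting intervals of G1 and S cells overlapped. These were NIPBL in CHLA9 and STAG1, NIPBL, WAPL, PDS5B and CTCF in TC71. The S to G1 ratios of PDS5B and CTCF in TC71 each changed sign in 4 of 19 alternatives. Phases were scored per library from lists of S and G2M genes, with CTCF taken out of the G2M list so that none of the 10 genes helped to call a phase. CHLA9 had 1019 G1, 1731 S and 1774 G2M cells, and TC71 had 210, 849 and 670. The phases are ranges of a score and not separate types: 12.3% of CHLA9 cells and 21.1% of TC71 cells lay within 0.05 score units of a boundary. Median UMIs per cell went up from 29242 in G1 to 40813 in G2M cells of CHLA9 and from 29279.5 to 36756 in TC71.

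**Figure D3:**
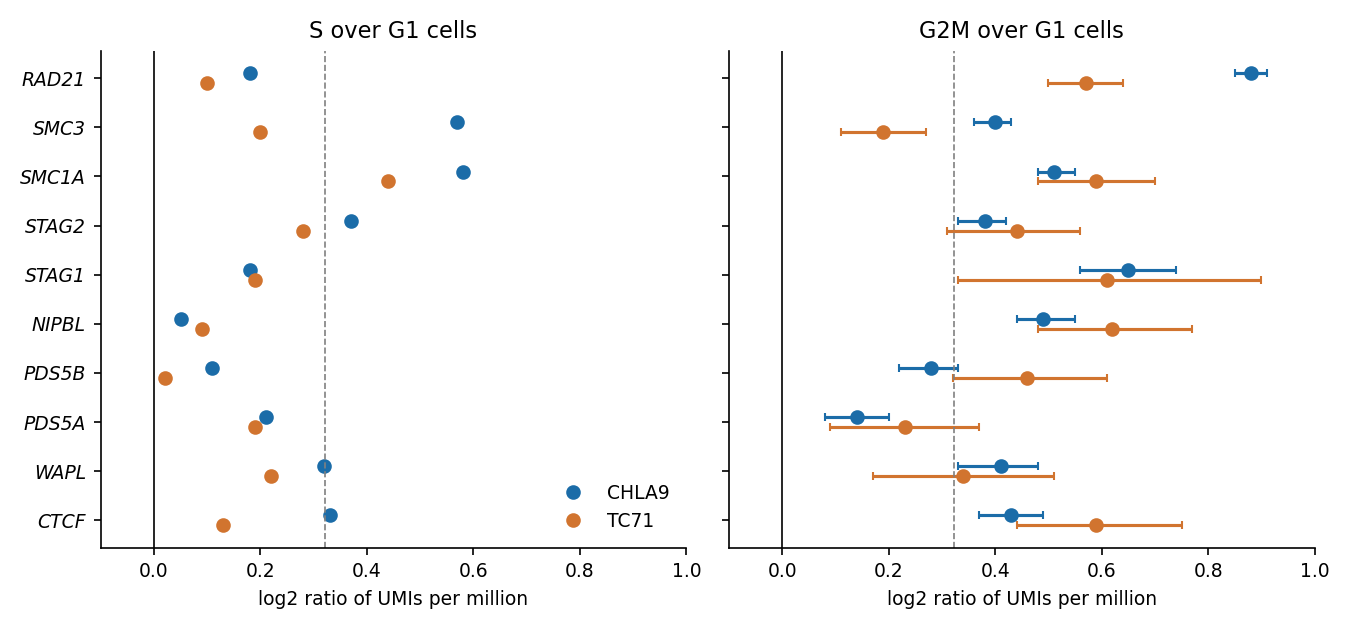
Log2 ratio of CPM in S over G1 cells (left) and G2M over G1 cells (right) for the 10 genes in CHLA9 and TC71; bars on the right are exact 95% intervals for counting error (none are drawn on the left) and the dashed line marks 25% higher. Every point lies above 0, and RAD21 has the largest G2M value in CHLA9 (0.88) and NIPBL in TC71 (0.62). Some S points are within counting error of G1, such as PDS5B in TC71 (0.02).

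Set against G1 cells, 8 of the 10 genes were at least 25% higher in G2M cells of CHLA9, where 14.1% of all genes were, and 8 of the 10 in TC71, where 24.0% of all genes were. The median log2 ratio of the 10 genes was 0.42 in CHLA9 and 0.52 in TC71, beside 0.03 and 0.11 over all genes. In CHLA9 the genes short of the mark were PDS5B (0.28, interval 0.22 to 0.33) and PDS5A (0.14, 0.08 to 0.20). In TC71 they were PDS5A (0.23, 0.09 to 0.37) and SMC3 (0.19, 0.11 to 0.27). The genes just inside the mark were STAG2 in CHLA9 (0.38) and WAPL in TC71 (0.34).

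RAD21, STAG1, NIPBL, PDS5B, CTCF, WAPL and STAG2 had larger ratios to G1 cells in G2M than in S cells of both lines, though STAG2 barely so in CHLA9. SMC1A in both lines, and SMC3, STAG2 and CTCF in CHLA9, were already past the mark in S cells. PDS5B went from 0.11 in S to 0.28 in G2M cells of CHLA9 (log2 over G1) and from 0.02 to 0.46 in TC71. CTCF went from 0.33 to 0.43 and from 0.13 to 0.59, and WAPL from 0.32 to 0.41 and from 0.22 to 0.34. RAD21 went from 0.18 in S to 0.88 in G2M cells of CHLA9 (log2 over G1) and from 0.10 to 0.57 in TC71. STAG1 went from 0.18 to 0.65 and from 0.19 to 0.61, and NIPBL from 0.05 to 0.49 and from 0.09 to 0.62. SMC3 went from 0.57 in S down to 0.40 in G2M cells of CHLA9 and stayed at 0.20 and 0.19 in TC71, and SMC1A was at 0.58 and 0.51 in CHLA9 and at 0.44 and 0.59 in TC71. STAG2 was at 0.37 in S and 0.38 in G2M cells of CHLA9, and at 0.28 and 0.44 in TC71. In S cells 4 of the 10 genes of CHLA9 (SMC1A, SMC3, STAG2 and CTCF) were at least 25% above G1, with 12.7% of all genes, and 1 of TC71 (SMC1A), with 10.5% of all genes. The count of genes past the mark in G2M cells differed between quartiles of UMIs per cell, without a steady trend in CHLA9. From lowest to highest it was 4, 7, 4 and 9 in CHLA9, where the quartiles held 492, 332, 101 and 94 G1 cells. In TC71 it was 9, 7, 7 and 6, with 87, 66, 32 and 25 G1 cells. The share of all genes past the mark was not computed within quartiles.

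The G2M ratio of RAD21 was larger in CHLA9 (0.88, interval 0.85 to 0.91) than in TC71 (0.57, 0.50 to 0.64), as was that of SMC3 (0.40, 0.36 to 0.43, against 0.19, 0.11 to 0.27). These intervals did not overlap, but with 1 library per line the difference was not tested. Larger ratios in CHLA9 were also found outside the 10 genes, as for the kinase gene PLK1 (2.80 against 1.20) and the condensin gene SMC2 (0.85 against 0.18). STAG2, SMC1A, NIPBL, PDS5A, PDS5B and CTCF had the larger ratio in TC71. In TC71 PLK1 was higher in G1 (67.1 CPM) than in S cells (38.5 CPM), unlike in CHLA9 (39.2 and 45.1 CPM). What part the G1 class has in these differences was not tested. The G1 class of TC71 depended on the scoring: it held 12.1% of cells as used here and 26.9% with all genes kept for scoring, when 7 of the 10 genes were at least 25% higher in G2M cells. With genes in at least 3 cells kept for scoring it held 25.6% of cells, and 6 of the 10 genes were past the mark. The share of all genes past the mark was not computed for these other scorings.

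Along the G2M score itself, RAD21 climbed in each line while SMC3 did not (the plot of score deciles). From the lowest to the highest decile RAD21 went from 257 to 659 CPM in CHLA9 and from 233 to 545 CPM in TC71. SMC3 went from 283 CPM to a peak of 417 CPM in the sixth decile and back to 338 CPM in CHLA9, and lay between 288 and 340 CPM in TC71. STAG1 went from 41.5 to 73.5 CPM and from 16.3 to 30.4 CPM, and CTCF from 92.3 to 123 CPM and from 69.1 to 111 CPM.

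**Figure D4:**
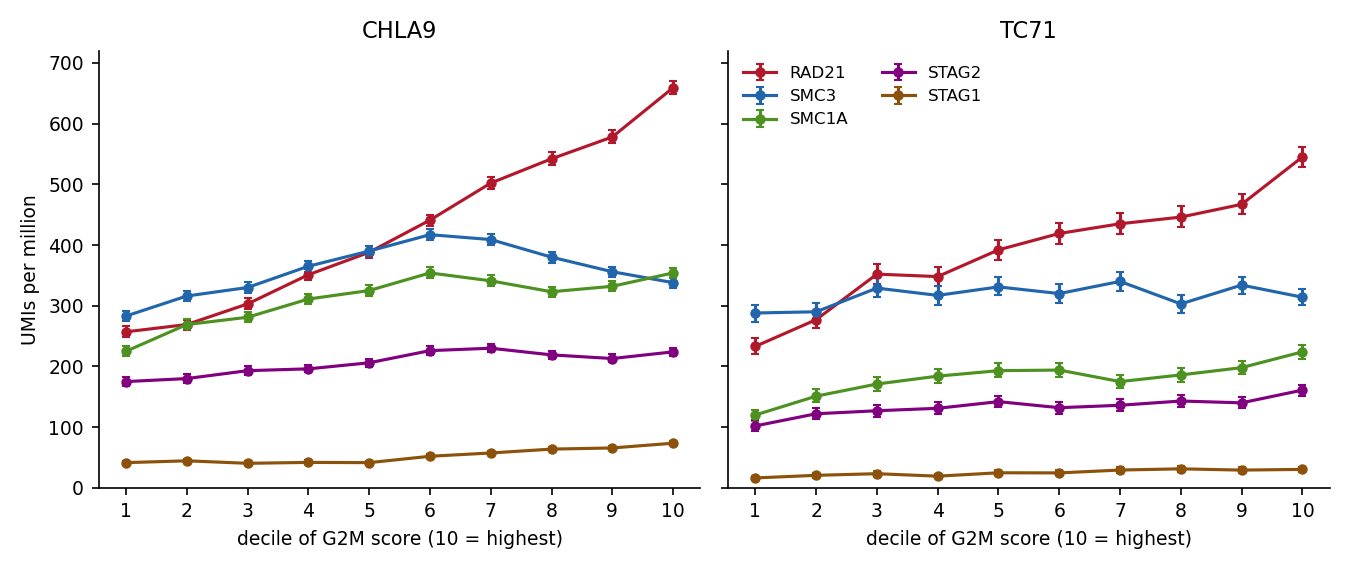
CPM of RAD21, SMC3, SMC1A, STAG2 and STAG1 by decile of the G2M score (10 is highest) in CHLA9 and TC71, with exact 95% Poisson intervals for counting error. RAD21 climbs to 659 and 545 CPM in the highest decile, while SMC3 peaks at 417 CPM in the middle of the range in CHLA9 and stays between 288 and 340 CPM in TC71.

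Among the 10 genes, RAD21 had the most other genes past a fixed correlation across cells, and it also had the most UMIs. Over 7516 genes and thinned cells, 24 genes had a Spearman correlation of at least 0.2 with RAD21 in both lines, led by the mitotic genes CENPF (0.501 in CHLA9 and 0.318 in TC71), TPX2 (0.453 and 0.311) and DLGAP5 (0.417 and 0.288). SMC1A had 3 such genes, MALAT1 (0.304 and 0.283), MKI67 (0.233 and 0.220) and NCL (0.213 and 0.222), and the other 8 genes had 0. These correlations describe 4510 and 1670 cells that share a library and are given without a test. Counting error lowers the correlations of genes with few UMIs, so the counts of genes cannot be compared between members of unlike level. At 10000 UMIs RAD21 had means of 4.39 and 4.02 UMIs per cell and STAG1 0.525 and 0.252. Between the 10 genes themselves the 45 correlations had medians of 0.0465 in CHLA9 and 0.0527 in TC71 and reached 0.172 at most. That of STAG1 with STAG2 was 0.0398 and 0.0490.

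Relatives of these genes that normally act in germ cells separated the lines far more than the 10 genes did (the plot of members and relatives). SMC1B, the meiotic counterpart of SMC1A, was at 79.0 CPM (76.8 to 81.3) in TC71 and had 9 UMIs in all CHLA9 cells, or 0.0514 CPM (0.0235 to 0.0976). It made up 30.3% of the SMC1A and SMC1B UMIs in TC71. CTCFL, the germ cell paralog of CTCF also called BORIS, was at 112 CPM (109 to 115) in TC71 and 2.36 CPM (2.14 to 2.60) in CHLA9. CTCFL exceeded CTCF in TC71 and gave 56.1% of their summed UMIs there, against 2.17% in CHLA9. REC8, the meiotic kleisin that takes the place of RAD21, went the other way, with 39.4 CPM (38.4 to 40.3) in CHLA9 and 0.446 CPM (0.291 to 0.653) in TC71. STAG3, the meiotic STAG protein, was at 2.68 CPM in CHLA9 and 2.55 CPM in TC71, within counting error of each other, and the kleisin gene RAD21L1 was under 1 CPM in both.

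**Figure D5:**
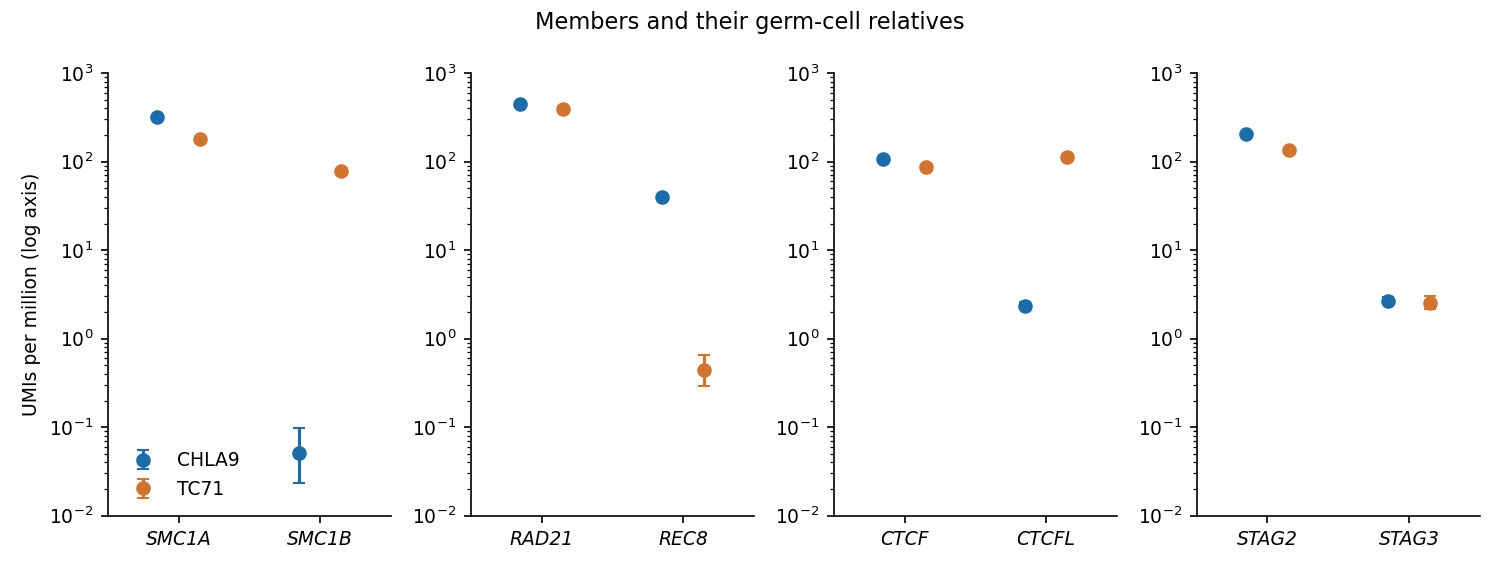
CPM (log axis) of SMC1A, RAD21, CTCF and STAG2 beside their germ cell relatives in CHLA9 and TC71, with exact 95% Poisson intervals for counting error. SMC1B (79.0 against 0.0514 CPM) and CTCFL (112 against 2.36 CPM) are high in TC71 and REC8 (39.4 against 0.446 CPM) is high in CHLA9, while STAG3 is low in both (2.68 and 2.55 CPM).

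SMC1B, CTCFL and REC8 were detected in many cells of the line where they were higher. At 10000 UMIs SMC1B was detected in 52.2% and CTCFL in 65.6% of TC71 cells, and REC8 in 32.5% of CHLA9 cells. In the other line the shares were 0.0222% for SMC1B, 2.42% for CTCFL and 0.539% for REC8, with medians of 33370 UMIs per cell in TC71 and 34656 in CHLA9 before thinning. That line is a separate library, so its shares do not measure free RNA in the line where the gene was higher. In the left-out barcodes of TC71 SMC1B was at 79.5 CPM and CTCFL at 73.8 CPM, against 79.0 and 112 CPM in kept cells. The part of free RNA in the detection was not tested. SMC1A and SMC1B were detected together in 42.5% of TC71 cells, where the product of their shares is 42.1%, and CTCF with CTCFL in 36.5%, where it is 36.2%. Their variance over the mean was 1.15 for SMC1B and 1.18 for CTCFL in TC71 and 1.04 for REC8 in CHLA9.

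Other genes of the pathway were read from 7 lists of 37 genes: meiotic cohesin, the loader partner MAU2, establishment and acetylation, protection and cleavage, loop anchors, condensin and SMC5/6. Of the 34 with at least 10 CPM in a line, 4 were at least 2-fold apart between the lines, or 2 in each direction, beside 25.1% of all genes. They were REC8 and CHTF18 (a clamp loader subunit linked to cohesion, 22.6 against 8.17 CPM), which were higher in CHLA9, and SMC1B and CTCFL, which were higher in TC71. MAU2, the partner of NIPBL, was at 27.7 CPM (27.0 to 28.5) in CHLA9, 1.84-fold above its level in TC71. The SMC5/6 genes, of another SMC complex that acts in DNA repair, had more CPM in TC71 for 5 of 6 genes, with a median log2 difference of -0.56. Condensin had more in CHLA9 for 5 of 8 genes, with a median of 0.49. The median over all genes was 0.21, toward CHLA9. The share of all genes with more CPM in either line was not computed, so these 2 counts have no background beside them.

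Between G1 and G2M cells of CHLA9 the 10 genes had smaller ratios than most condensin and cleavage genes. In TC71 this held for the protection and cleavage genes only. There the condensin genes NCAPH2 (0.06), SMC2 (0.18), NCAPD3 (0.48) and NCAPG2 (0.48) lay below the median of the 10 genes (0.52). Condensin, which compacts mitotic chromosomes, was at least 25% higher in G2M than G1 cells for 8 of 8 genes in CHLA9 (median log2 ratio 1.09). In TC71 it was so for 6 of 8 genes (0.61). Of all genes 14.1% in CHLA9 and 24.0% in TC71 were past this mark. Condensin was led by NCAPG (2.64 and 1.42), NCAPH (2.58 and 1.34), SMC4 (1.64 and 0.85) and NCAPD2 (1.13 and 0.75). Of the protection and cleavage genes 4 of 5 were past the mark in each line, with medians of 2.80 and 1.20: the shugoshins SGO2 (3.26 and 2.06) and SGO1 (2.60 and 1.07), the separase gene ESPL1 (3.03 and 1.33) and the kinase PLK1 (2.80 and 1.20). ESCO2, the acetyltransferase of SMC3 in S phase, was at 2.23 and 1.10, and CDCA5, which encodes the cohesin protector sororin, at 2.36 and 0.78. Both were higher in S cells (2.84 and 1.33 for ESCO2, 2.65 and 0.93 for CDCA5). SMC4 and NCAPD2 stand in the G2M list that called the phases, so their ratios are not independent of the calls, while the others named here are in neither list. SMC5/6 had medians of 0.18 and 0.06, with 0 of 6 and 1 of 6 genes past the mark. Its counts were near the shares of all genes, whose medians were 0.03 and 0.11.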

How the data were processed

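Single cell RNA-Seq counts of CHLA9 and TC71 were used. UMIs per cell barcode were counted by the authors against hg38 (Cell Ranger 3.1.0), and these raw counts were deposited without normalization. Other samples of the study were not analysed here.

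Cells were filtered as stated in the text, and no doublet caller was run. UMIs were summed over the kept cells of a library and divided by the total UMIs of those cells (CPM). For a phase, decile, quartile or the left-out barcodes, the total was that of the same group of barcodes. Phases were scored with Seurat 5.3.0 in R 4.3.3 on genes found in at least 10 cells. Thinning to 10000 UMIs per cell used numpy 2.4.6 (seed 1), and intervals (scipy 1.17.1) were exact. Since each line had 1 library, nothing was tested. Intervals cover counting error only. TMM factors came from edgeR 4.0.16. The summed fold, interval, thinning, correlation and phase steps were tested on simulated data.

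The 10 genes, the lists and the alternatives were chosen with earlier results of these data known. Named beside the 10 genes were related genes with at least 10 CPM that passed 2-fold between the lines or 1.5-fold between G2M and G1 cells the same way in both lines, the meiotic genes, MAU2, and up to 3 genes per member with a correlation of at least 0.2 in both lines. Alternatives changed the cell filters, scaling, weighting of cells, depth and phase scoring.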

Additional observations from a re-analysis of the deposited data

Results flagged for a closer look

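Among 40 genes of the cohesin, condensin and SMC5/6 lists with at least 10 CPM in each line, MAZ, a zinc finger gene of the loop anchor list, was the gene whose G2M to G1 ratio had opposite signs in the lines with both counting intervals clear of 0. Its log2 ratio was 0.06 in CHLA9 and -0.16 in TC71. The difference was not tested, since each line has 1 library.

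The barcodes that the filters left out also held UMIs of the 10 genes, namely 4809 in the 553 left-out barcodes of CHLA9 and 18399 in the 6739 of TC71. Their summed level there was 1368 CPM (1330 to 1408, exact Poisson interval) in CHLA9 and 1079 CPM (1063 to 1095) in TC71, against 1922 and 1488 CPM in the kept cells. SMC1B was at 79.5 CPM in the left-out barcodes of TC71 and at 79.0 CPM in its kept cells.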

How the results depend on the processing

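No paired analysis was possible because both lines have 1 library and no result came from a test. A median was counted as moved past 0.1 on the log2 scale, a count past 1.5 times, and a share or gene value outside its counting interval. The median difference between the lines was 0.20 with the median of ratios, 0.25 with TMM and 0.52 in S cells only. Thinning to 10000 UMIs put the STAG2 share of CHLA9 at 79.1% and at 75.8% in G2M cells. The count of genes at least 25% higher in S than G1 cells of TC71 was 2 in place of 1 with at most 10% mitochondrial UMIs and with the mean share per cell. Within quartiles of UMIs per cell or mitochondrial percent, which were chosen after seeing the data, the G2M count of CHLA9 was 4 to 9, the S count was 2 to 5 in CHLA9 and 1 to 4 in TC71, and the G2M count of CHLA9 was 5 in the lowest mitochondrial quartile. The S count was 3 in the third mitochondrial quartile of TC71. WAPL in the highest mitochondrial quartile of TC71 had a G2M ratio of -0.02. The share of all genes past the mark was not computed for the S and G2M counts of the alternatives. The causes were not tested. A gene ratio was counted as reversed only if it was past its fold mark in the main setting and changed sign. Sign changes of smaller ratios were counted as moved or kept by the limits above. One such ratio was that of PDS5A between the lines (-0.06 with the median of ratios). Of 1466 alternative values of 94 results, 1077 kept within these limits, 388 moved and 1 reversed, so the last count is not the count of sign changes. TC71 has the lower depth, and its G1 class of 210 cells limits every TC71 ratio over G1 cells.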

Other observations

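In CHLA9 most of the genes named here were lower in cells with a higher mitochondrial share, and in TC71 the differences were smaller or went the other way. From the lowest to the highest quartile of mitochondrial percent in CHLA9 (medians of 5.81% and 9.48%), SMC1A went from 359 to 265 CPM, RAD21 from 505 to 390 CPM and WAPL from 83.7 to 63.3 CPM, whereas PDS5A went only from 103 to 97.7 CPM and the germ cell kleisin REC8 from 38.2 to 40.0 CPM. From the lowest to the highest quartile in TC71 (medians of 6.66% and 11.8%), SMC1A went from 191 to 173 CPM, RAD21 from 382 to 385 CPM, WAPL from 66.1 to 62.0 CPM and PDS5A from 83.5 to 96.5 CPM. G1 cells of CHLA9 had a median of 8.17% mitochondrial UMIs and G2M cells 7.24%, and in TC71 the medians were 8.75% and 9.15%. What part phase, depth and mitochondrial share each have in these differences was not tested.

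The bases upstream of the starts differed in CpG content among the genes. Over 250 bases PDS5B had 41 CpG sites, WAPL and CTCF 39 each and SMC3 17, beside a median of 11.0 over all listed starts. The 3 listed starts of STAG2 had 29, 13 and 14, and the 2 of SMC1A had 15 and 24. SMC1B had 29 and REC8 21, while the 3 listed starts of CTCFL had 2, 7 and 15.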
